A study of Arabidopsis thaliana with 6 samples.

Results

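The 22 genes described here belong to families of transporters and channels that move mineral ions across plant membranes, measured in bundle sheath cells (BSCs) and mesophyll cells (MCs) of Arabidopsis leaves. Of these, 19 were chosen by name, as genes whose current symbol begins with 1 of 30 family names such as NRT for nitrate, ZIP for zinc and iron, or CHX for cation/H+ exchangers. The other 3, RAN1, AT5G17850 and AT2G04620, were added by name. The 19 fell into 7 CHX genes, 7 glutamate receptor-like (GLR) genes, ZIP6 and ZIP9, and 1 gene each of the MTP, NRAMP and NRT families. For 24 of the 30 family names, no named probe set had a current symbol that matched. Some genes of those families were named under another symbol, such as RAN1, listed also as HMA7, and several NPF genes. Each gene had 1 probe set, out of 22746 Arabidopsis probe sets of which 13513 were assigned to 1 gene.

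Protoplasts came from leaves of Landsberg (Ler) plants carrying SCR:GFP, a green fluorescent protein driven by the SCARECROW promoter, and no treatment was given. BSCs were picked by hand as fluorescent protoplasts, and MCs as larger protoplasts of the same plants' leaves without fluorescence, so both groups carry the transgene and membership rests on the promoter and on size. RNA of 20 protoplasts per sample was amplified 3 times and hybridized to an Affymetrix ATH1 array, giving BSC arrays 3, 5 and 7 and MC arrays 4, 6 and 8. The values are log2 of the normalized expression level, log2(NREL), and a difference of 1 on this scale is 2-fold. Since equal numbers of protoplasts and repeated amplification stand behind each array, less RNA per cell and fewer cells with the transcript cannot be told apart.

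The arrays were not alike in brightness. BSC array 7 had the fewest bright probe sets, 78 with a log2(NREL) of 5 or more, and the other arrays had 406 to 1157. The median log2 value of the E. coli spike-in controls was highest on that array, 9.91, and lowest on BSC array 3 and MC array 6, 6.28 and 5.99. Among markers of the cell types, none of 3 for bundle sheath, 4 for epidermis and 4 for xylem had a named probe set, so the bundle sheath label was not checked against a defining marker. The mesophyll markers RCA and PRK, the 2 of 8 that were named, reached 8.34 and 6.17 on BSC array 3, 7.57 and 4.42 on BSC array 5, and 3.66 and 2.43 on BSC array 7. On MC arrays 4, 6 and 8 RCA had 6.69, 8.98 and 6.15, and PRK had 5.71, 7.82 and 5.68, so these mesophyll transcripts were present in both groups and lowest on BSC array 7. FAMA, the 1 of 5 guard cell markers named, lay between 1.81 and 2.35, and SWEET11, the 1 of 5 phloem markers named, between 2.43 and 3.80. Neither marker passed an unadjusted p of 0.05 in limma.

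Mineral nutrients reach the leaf in the xylem and pass the bundle sheath, the cell layer that wraps the veins, before they reach the mesophyll. Carriers, pumps and channels in these membranes are of different kinds. P-type ATPases spend ATP to move metals such as copper, exchangers trade a cation against protons or sodium, ZIP and NRAMP proteins carry zinc, iron and manganese into the cytosol, MTP proteins carry such metals out of it, and GLR channels let calcium and other cations through. BSCs and MCs were compared here gene by gene, to ask whether these genes differ between the cell that receives the xylem sap and the cell that it supplies.

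Across the 22 genes, 2 stood well above the others in level, RAN1 and AT5G17850, and both had their higher mean in BSCs. The remaining 20 never reached a log2(NREL) of 3 on any array. The median of the mean levels was 1.96, beside 2.00 over all probe sets, and a log2(NREL) of 2, the study's level for an expressed gene, was reached by the mean of 9 genes in BSCs (40.9%) and 10 in MCs (45.5%), beside 49.7% and 48.5% of all probe sets. The study's level for highly expressed transporter genes, 3.5, was reached by RAN1 and AT5G17850 in BSCs and by none in MCs. Both had been added by name, and the study had listed them from these same arrays as highly expressed in BSCs alone. Their levels are therefore not independent evidence.

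**Figure D1:**
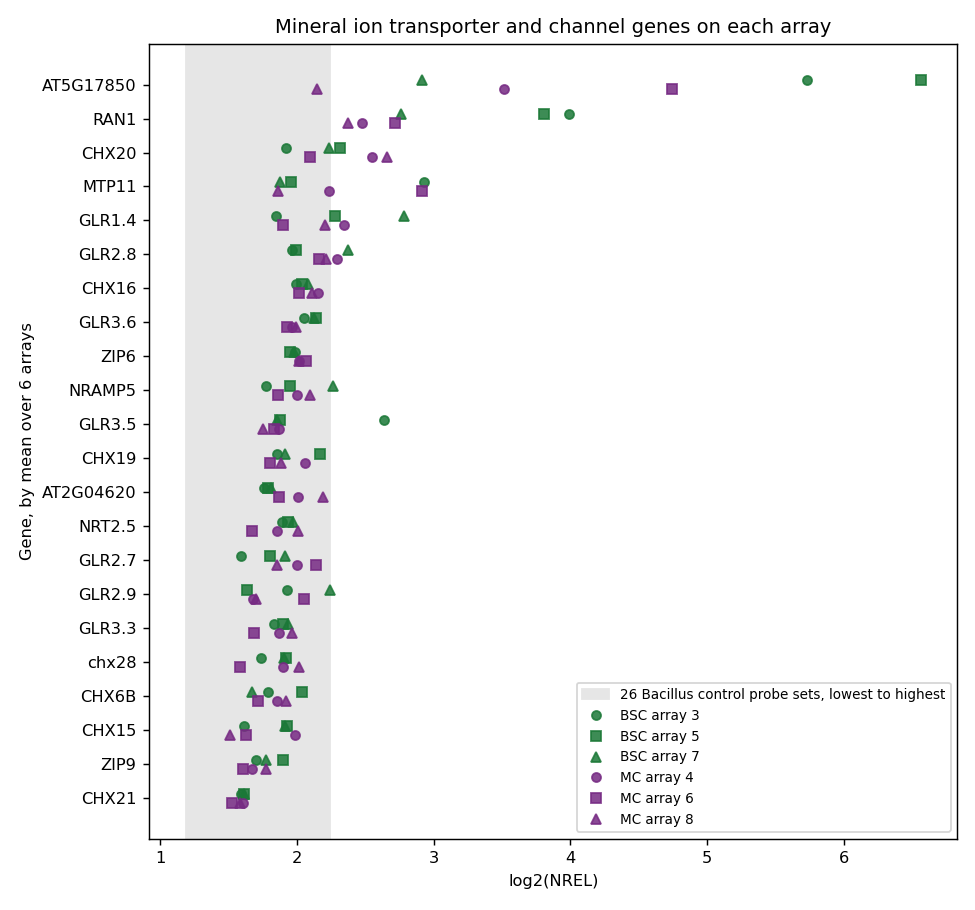
log2(NREL) of the 22 genes on each of the 6 arrays (horizontal axis), ordered by their mean; green symbols are BSC arrays, purple symbols are MC arrays, and the grey band spans the values of 26 Bacillus control probe sets, 1.19 to 2.24. Only AT5G17850 and RAN1 have values above 3.

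A low value on these arrays need not be a detected transcript. The array carries probe sets for Bacillus genes, and whether these RNAs were added to the samples is not given in the sources used here. Of 27 such probe sets, 26 lay together, with medians of 1.48 to 1.65 on the arrays. The 1 brighter set, at 3.75 to 4.66 on the arrays, was left out. It was above CHX20 on every array, and above RAN1 on every array but BSC array 3. The Bacillus controls named below are the 26 others. RAN1, AT5G17850 and CHX20 exceeded the highest of the 26 on all arrays, as did 23.1% of all probe sets. CHX15, CHX21 and ZIP9 exceeded it on none, and the other 16 genes did so on 1 to 5 arrays. Thus most of these genes were measured within or close to the range of probe sets for bacterial genes.

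Differences between BSCs and MCs were tested with limma, which fits each probe set and steadies its estimate of spread with that of the whole array, here 22746 probe sets. A gene was called by a raw p under 0.05 together with a 1.5-fold change or more, the limits given in the methods. By this rule 1 of the 22 genes passed, RAN1, beside 0.501% of all probe sets. It was higher in BSCs, as were 0.141% of all probe sets, while 0.361% were lower. At a p under 0.05 with no limit on fold change, RAN1 was again the only gene, 1 of 22 beside 1.6% of all probe sets. None of the 19 genes chosen by family name passed in limma, and 2 of them, GLR3.6 and ZIP6, passed the methods' t-test at any fold, beside 2.26% of all probe sets. What is called the methods' t-test here compares the cell types for each probe set with no other factor. It need not be the test that was run on the arrays, for which the methods name an analysis of variance and do not state the factors, so a call lost in it says nothing of the study's own test. With the fold limit 0 of the 22 genes passed the methods' t-test, beside 0.18% of all probe sets. After Benjamini-Hochberg adjustment over all probe sets no gene of the array passed, and the adjusted p from limma was 1 for each of the 22 genes, so the call of RAN1 rests on the unadjusted threshold. RAN1, AT5G17850, AT2G04620, GLR3.6 and ZIP6 stand in lists that the study drew up from these same arrays, so their directions are not independent evidence. An exact permutation test of 3 arrays against 3 cannot give a p below 0.1, and none was used.

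**Figure D2:**
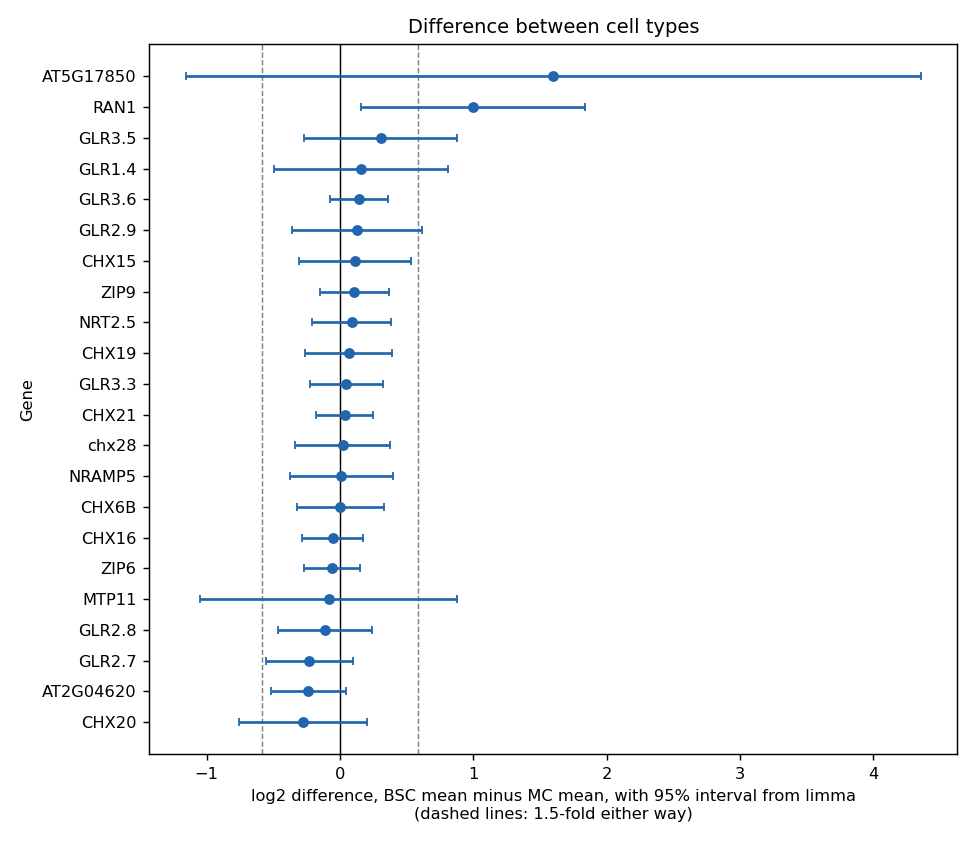
Difference in log2(NREL), BSC mean minus MC mean, of the 22 genes (points) with 95% intervals from limma (bars); dashed lines mark 1.5-fold in each direction. RAN1, at 0.995, is the only gene whose interval excludes 0.

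RAN1 (AT5G44790), listed also as HMA7, encodes a copper-transporting P-type ATPase that supplies copper to the ethylene receptors. Its log2(NREL) was 3.99, 3.81 and 2.76 on BSC arrays 3, 5 and 7, and 2.48, 2.72 and 2.38 on MC arrays 4, 6 and 8. Every BSC value was above every MC value, but BSC array 7 was only just above MC array 6. The mean was 3.52 ± 0.66 in BSCs and 2.52 ± 0.17 in MCs (SD, n = 3 each), a fold change of 1.99 with a 95% interval of 1.11 to 3.57. The log2 difference was 0.995 with a standard error of 0.34, and its unadjusted p in limma was 0.0277. Within each array RAN1 ranked above 86.2% to 94.6% of all probe sets in BSCs and above 73.6% to 82.9% in MCs, so the order of the cell types was the same by rank. The difference stayed positive without any one array, from 0.76 to 1.37 on the log2 scale. The call was lost in the methods' t-test (p of 0.0655) and without BSC array 3, BSC array 5, MC array 4 or MC array 8 (limma p of 0.0725 to 0.0868). Apart from the arrays, the study reports qRT-PCR on amplified RNA of both cell types, with RAN1 higher in BSCs.

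AT5G17850, which the study annotates as a sodium/calcium exchanger and which neighbours the calcium exchanger gene CAX7 in the gene table, was the brightest of the 22 genes. It had 5.73, 6.56 and 2.91 on BSC arrays 3, 5 and 7 and 3.51, 4.74 and 2.15 on MC arrays 4, 6 and 8. BSC arrays 3 and 5 were above all MC arrays, whereas BSC array 7 lay below MC arrays 4 and 6, so the cell types overlapped. Its means were 5.07 ± 1.91 in BSCs and 3.47 ± 1.30 in MCs (SD, n = 3 each). The fold change of 3.03 was the largest of the 22 genes, but its interval ran from 0.45 to 20.5, and the unadjusted p in limma was 0.203. The study's own test on these same arrays listed the gene as differing. Without BSC array 7 the log2 difference grew from 1.60 to 2.68 and passed the thresholds (p of 0.0227). With limma's array weights it was 3.04 (p of 0.00987). Those weights were low for BSC arrays 7 and 3, 0.409 and 0.424, and 3.12 for BSC array 5, which held the gene's highest value. MC array 6, with the highest MC value, had a weight of 0.470. Without BSC array 5 the log2 difference was 0.85 (p of 0.492).

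RAN1 and AT5G17850 were both lowest among the BSC arrays on array 7, as were RCA and PRK. The same held for AHA2, a plasma membrane proton pump, with 6.54, 6.18 and 3.67 on BSC arrays 3, 5 and 7, and for PDE318, which the study lists as an iron transporter gene, with 5.87, 5.71 and 3.25. On MC arrays 4, 6 and 8 AHA2 had 3.68, 4.43 and 3.30, and PDE318 had 2.87, 3.46 and 2.50. The part of array 7 in these differences was not tested beyond leaving it out. Without it, the differences of RAN1 and AT5G17850 were both larger than with it.

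**Figure D3:**
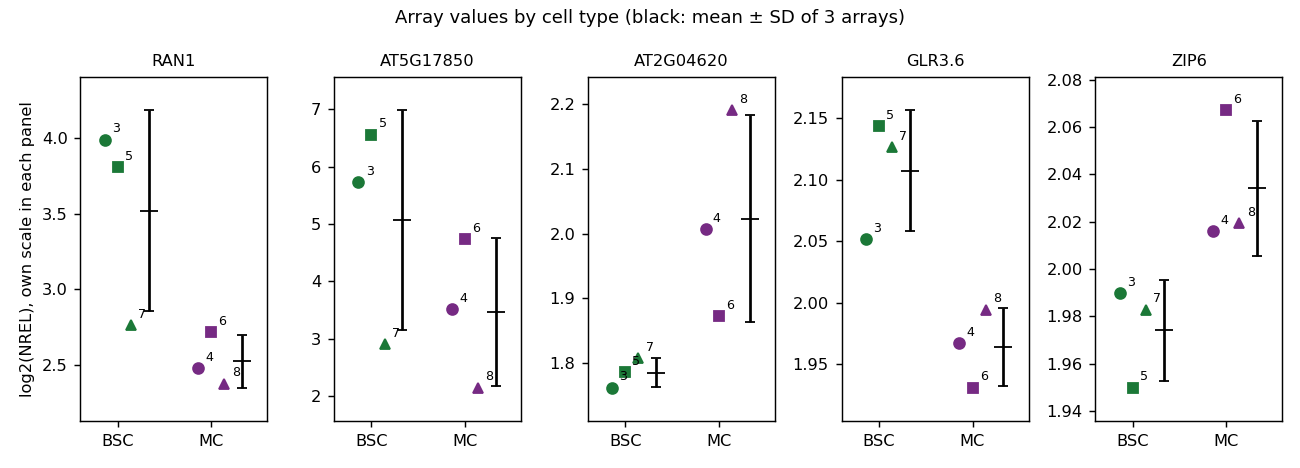
log2(NREL) of 5 genes by cell type, each panel on its own scale; numbers are array numbers, black bars the mean ± SD of 3 arrays. The cell types overlap for AT5G17850 and are apart for the other 4, by a gap between their nearest arrays of 0.026 for ZIP6, 0.046 for RAN1, 0.057 for GLR3.6 and 0.064 for AT2G04620.

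AT2G04620, annotated by the study as a cation efflux transporter, was the third gene added by name. It had 1.76, 1.79 and 1.81 on BSC arrays 3, 5 and 7 and 2.01, 1.87 and 2.19 on MC arrays 4, 6 and 8. All BSC values were below all MC values, and the BSC arrays differed by less than the MC arrays did. The log2 difference was -0.24 with a standard error of 0.11 and an unadjusted p in limma of 0.0847, or 1.18-fold higher in MCs. With each array centred on its median the p was 0.0454, with quantile normalization 0.0483 and without MC array 6 0.0437, at a fold below 1.5 in each case. The gene exceeded the Bacillus controls on 2 of 6 arrays.

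In all, 4 of the 22 genes had BSC and MC arrays that did not overlap, beside 6% of all probe sets. RAN1 and GLR3.6 were above in BSCs, beside 3.14% of all probe sets, and AT2G04620 and ZIP6 were below, beside 2.85%. All 4 are among the genes that the study had listed from these arrays. Under quantile normalization 3 of the 22 did not overlap, and the share of all probe sets under it is not given here.

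The GLR genes encode cation channels related to animal glutamate receptors. GLR3.3 and GLR3.6 are known for carrying electrical signals from a wounded leaf through the veins to other leaves. GLR3.6 had 2.05, 2.14 and 2.13 on BSC arrays 3, 5 and 7 and 1.97, 1.93 and 1.99 on MC arrays 4, 6 and 8. The arrays of a cell type lay close together, and the BSC values were all above the MC values. The log2 difference was 0.14 with a standard error of 0.09, a fold change of 1.10, with a p of 0.158 in limma and of 0.0131 in the methods' t-test, which takes the spread from the gene alone. GLR3.3 lay between 1.69 and 1.97 on the 6 arrays, and its cell types overlapped, with a log2 difference of 0.05 (95% interval -0.23 to 0.32).

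GLR3.5, which takes part in stomatal closure, was high on 1 array only. It had 2.64 on BSC array 3, where it ranked above 81.4% of all probe sets, and 1.75 to 1.87 on each of the other 5 arrays. Its log2 difference of 0.30, the largest among the 19 genes chosen by family name, fell to 0.04 without BSC array 3. GLR1.4, a channel that opens with methionine, showed another order, with 1.85, 2.28 and 2.78 on BSC arrays 3, 5 and 7 and 2.34, 1.90 and 2.21 on MC arrays 4, 6 and 8. It was highest on BSC array 7 and lowest on BSC array 3. The log2 difference was 0.15 (p of 0.579 in limma) and turned to -0.08 without BSC array 7.

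GLR2.7, GLR2.8 and GLR2.9 follow each other on chromosome 2 in the gene table, and their channels take part in calcium signals of the immune response. GLR2.7 had 1.60, 1.80 and 1.91 on BSC arrays 3, 5 and 7 and 2.01, 2.14 and 1.86 on MC arrays 4, 6 and 8. Its lowest 2 values were BSC arrays and its highest 2 were MC arrays, with a log2 difference of -0.23 (p of 0.133 in limma). GLR2.8 had 1.96, 1.99 and 2.38 in BSCs and 2.30, 2.16 and 2.21 in MCs in the same order of arrays, a log2 difference of -0.11 (p of 0.463). GLR2.9 had 1.93, 1.64 and 2.25 in BSCs and 1.68, 2.05 and 1.70 in MCs, a log2 difference of 0.13 (p of 0.544). The neighbours thus had no common order of the arrays, and whether their probes separate such related genes was not examined here. Of the 7 GLR genes, 5 had the higher mean in BSCs, as did 54.1% of all probe sets, and 2 in MCs. No p in limma among them was below 0.133.

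Cation/H+ exchangers of the CHX family move potassium and other cations, mostly across inner membranes, and many are known from pollen. CHX20, which works in the potassium and pH balance of guard cells, was the brightest of the 7. It had 1.92, 2.32 and 2.24 on BSC arrays 3, 5 and 7 and 2.55, 2.10 and 2.66 on MC arrays 4, 6 and 8. MC arrays 4 and 8 were above all BSC arrays, while MC array 6 lay among them. The log2 difference was -0.28 with a 95% interval of -0.76 to 0.20 and a p of 0.205 in limma, and without MC array 6 it was -0.45 (p of 0.0428). FAMA, the only guard cell marker named, had means of 2.06 in BSCs and 1.88 in MCs, and the cell types overlapped (p of 0.325 in limma). Its values, 1.81 to 2.35, lay near the range of the Bacillus controls. Whether guard cell RNA had a part in the CHX20 values was not tested.

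The other 6 CHX genes differed by no more than 0.11 on the log2 scale between the cell types. CHX16 lay between 1.99 and 2.16 on all arrays, and CHX19 between 1.80 and 2.17. The gene listed as chx28 lay between 1.59 and 2.01, CHX6B between 1.67 and 2.04 and CHX15 between 1.51 and 1.99. CHX21 was the dimmest and steadiest of the 22 genes, with 1.59, 1.61 and 1.61 in BSCs and 1.60, 1.52 and 1.59 in MCs. It ranked above no more than 19.8% of all probe sets on any array and stayed below the brightest Bacillus control throughout. Across the family 5 genes had the higher mean in BSCs, as did 54.1% of all probe sets, and 2 in MCs. Their p in limma ran from 0.205 to 0.995.

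Among the metal transporters, MTP11, which loads manganese into compartments of the secretory pathway, had the most spread after RAN1 and AT5G17850. It had 2.93, 1.95 and 1.87 on BSC arrays 3, 5 and 7 and 2.24, 2.92 and 1.86 on MC arrays 4, 6 and 8. The high values were on 1 array of each cell type, BSC array 3 and MC array 6, where it ranked above 85.1% and 85.4% of all probe sets. These were also the arrays with the most probe sets at 5 or more, 1147 and 1157, and the lowest spike-in medians. The log2 difference of -0.09 had an interval of -1.05 to 0.88, which includes 1.5-fold in either direction.

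ZIP6 and ZIP9 belong to the zinc and iron carriers of the ZIP family, and ZIP9 is known to be induced by zinc deficiency. ZIP6 had 1.99, 1.95 and 1.98 on BSC arrays 3, 5 and 7 and 2.02, 2.07 and 2.02 on MC arrays 4, 6 and 8. All BSC values were below all MC values, by 0.06 on the log2 scale between the means, or 1.04-fold (p of 0.510 in limma and of 0.0433 in the methods' t-test). ZIP9 had 1.70, 1.90 and 1.77 in BSCs and 1.67, 1.61 and 1.77 in MCs, and the cell types overlapped at a log2 difference of 0.11 (p of 0.345). Both intervals lay within 1.5-fold in either direction, but ZIP9 exceeded the Bacillus controls on no array and ZIP6 on 4.

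NRAMP5 bears the name of a rice protein that takes up manganese into the root, and its own role in Arabidopsis is not described here. It had 1.77, 1.95 and 2.26 on BSC arrays 3, 5 and 7 and 2.00, 1.86 and 2.10 on MC arrays 4, 6 and 8, with a log2 difference of 0.01 (p of 0.962). NRT2.5, a high-affinity nitrate transporter of nitrogen-starved plants, had 1.89, 1.93 and 1.97 in BSCs and 1.86, 1.67 and 2.01 in MCs, with a log2 difference of 0.09 (p of 0.50). Neither gene reached 2.3 on any array, and both had cell types that overlapped. For 15 of the 22 genes (68.2%) the 95% interval excluded a change of 1.5-fold in either direction, beside 58.8% of all probe sets. Most of the 22 lay within or close to the range of the Bacillus controls, where a narrow interval need not mean equal transcript levels.

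Taken over the 22 genes, the median log2 difference was 0.04, beside 0.01 over all probe sets. The higher mean was in BSCs for 15 genes (68.2%), beside 54.1% of all probe sets, and in MCs for 7 (31.8%), beside 45.9%. The 15 include RAN1 and AT5G17850, which the study had already listed as higher in BSCs. The difference was smaller than 0.3 on the log2 scale in 19 genes (86.4%), beside 85% of all probe sets. For 13 genes the direction held whichever array was left out, and for 9 it turned without some array. As over all probe sets, low values fell on particular arrays more than on a cell type. BSC array 3 and MC array 6 each held the lowest of the 6 values for 7 of the genes (31.8%). This was near the share of all probe sets, 30.3% and 28%. MC array 8 held it for 5 genes, beside 7.35% of all probe sets. BSC arrays 5 and 7 held it for 2 and 1, beside 12% and 14.3%, and MC array 4 for none, beside 7.99%.

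**Figure D4:**
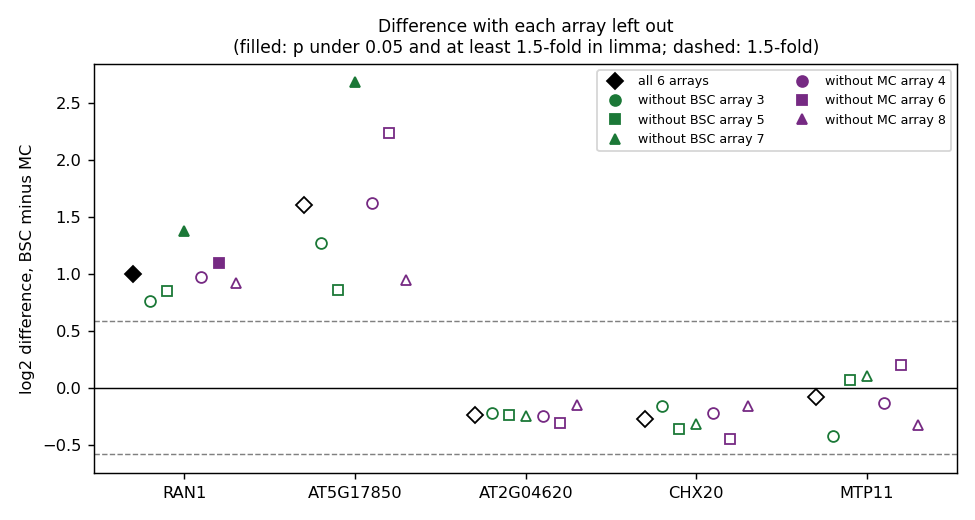
Log2 difference, BSC minus MC, of 5 genes with all 6 arrays (diamonds) and with each array left out (other symbols); filled symbols have p under 0.05 and at least 1.5-fold in limma. RAN1 and AT5G17850 stay above 0 throughout, while MTP11 lies on both sides of 0.

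Other genes of ion transport were looked for by name. None of 44 further channels, carriers and their regulators, such as SKOR, HKT1 and PHO1, had a named probe set. Of 16 proton pump genes 3 had one through the array annotation, all encoding subunit a of the vacuolar-type ATPase, and 1 of the 3 passed p under 0.05 in limma, lower in BSCs. This was VHA-A1, with 1.97, 2.32 and 2.12 on BSC arrays 3, 5 and 7 and 2.82, 3.0 and 2.52 on MC arrays 4, 6 and 8, a log2 difference of -0.65 (p of 0.00877). AHA2, a further pump named through the study's own probe list, had a log2 difference of 1.66 (p of 0.0872 in limma). PDE318 had 2.00 (p of 0.0384 in limma). The study's own test on these same arrays listed both as differing. Apart from the arrays, it reports qRT-PCR on amplified RNA, with AHA2 higher in BSCs.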

How the data were processed

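Hand-picked protoplasts were measured on 6 ATH1 arrays, 3 per cell type. Per the submitters' notes the authors used Partek 6.6 and RMA, the robust multi-array average, to normalize the arrays and reduce them to log2 values, 1 per probe set. These log2 values were taken as deposited, without 64 control probe sets. Their distribution was not the same on each array, with 95th percentiles from 3.35 on BSC array 7 to 5.03 on MC array 6. The reason for this was not tested. Names came from the array annotation, brought up to date with the TAIR10.1 gene table. RAN1, AHA2 and PDE318 were named through the study's own probe list. The gene table spells chx28 in lower case, and the family names were matched in either case.

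The comparison used limma 3.58.1 under R 4.3.3 (2-sided, Benjamini-Hochberg over 22746 probe sets), after a trial on simulated data. The number of arrays limits the precision. The labels call the arrays biological replicates without saying whether they came from separate plants, so p-values measure the spread between these samples. The members and gene lists were chosen with earlier results of these data known. Genes named were those added by name, those with a p under 0.05, those with a mean of at least 3.5 and the brightest of each family. Genes that the study names were included only where they had a named probe set. From the other lists, those with a p under 0.05 and AHA2, VHA-A1 and PDE318 were named. The remaining members were then described as well. Other settings tried were quantile normalization, centring on the median, array weights, a trended prior, the methods' t-test (equal variance, cell type alone; the array analysis of variance has unstated factors), a level of at least 2, no probe sets of several genes, every probe set of a gene, and each array left out. Figures were drawn with matplotlib 3.10.9.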

Additional observations from a re-analysis of the deposited data

How the results depend on the processing

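The count of genes past p 0.05 and 1.5-fold, 1 with all arrays, was 0 in the methods' t-test and 2 with array weights, and ranged from 0 to 2 with an array left out. At any fold it was 2 in the methods' t-test, 3 with array weights, 2 with median centring and 2 with quantile normalization. With an array left out it was 0 to 3. The share of all probe sets called is given here for the main test and the methods' t-test only. Under the other settings, a change in these genes can therefore not be told from a change over the whole array. The genes at 3.5 in BSCs were 1 under quantile normalization and 1 to 2 with an array left out, and those at 3.5 in MCs 0 to 1. No count of genes past the adjusted p moved from 0, and a trended prior, a level of at least 2, every probe set of a gene and probe sets of several genes left out gave the counts of the main test. Adding genes listed under a family name only as a synonym, chosen after seeing the data, left both counts at 1. With array weights NRAMP5 turned to -0.066 and chx28 to -0.016. With an array left out, the log2 differences of genes that turned ranged from -0.42 to 0.20 for MTP11, -0.084 to 0.38 for GLR1.4, -0.13 to 0.12 for NRAMP5, -0.031 to 0.14 for CHX19, -0.0028 to 0.17 for NRT2.5, -0.028 to 0.28 for GLR2.9, -0.031 to 0.11 for GLR3.3, -0.10 to 0.11 for chx28 and -0.10 to 0.081 for CHX6B. The causes were not tested. No paired analysis was run, because the labels do not record which BSC and MC arrays, if any, belong together. The study states that both cell types were extracted together. Signal near the control probe sets limits what can be said of all but the brightest genes.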

Other observations

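A further 13 genes carry 1 of the family names only as a synonym in the gene table, 11 of them in the NPF family of nitrate, peptide and glucosinolate carriers. None passed p under 0.05 in limma, where the lowest p was 0.115, and 10 of the 13 never reached a log2(NREL) of 3. GTR1 (NPF2.10), which carries glucosinolates, was the brightest, with 8.53, 7.71 and 3.08 on BSC arrays 3, 5 and 7 and 6.54, 9.18 and 7.86 on MC arrays 4, 6 and 8. It was at least 6 on every array but BSC array 7, and the log2 difference of -1.42 had a 95% interval of -5.26 to 2.41. AT1G68570 (NPF3.1) had 4.83, 2.48 and 2.13 in BSCs and 1.61, 2.34 and 1.82 in MCs in the same order, so it was high on BSC array 3 alone. AT3G21670 (NPF6.4) had 3.59, 2.03 and 2.27 in BSCs and 1.97, 5.0 and 2.10 in MCs, with its high values on BSC array 3 and MC array 6, as MTP11 had. These genes were looked at after the data had been seen.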
